A study of Homo sapiens with 9 samples.

Results

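Laminins are the main glycoproteins of basement membranes, and each laminin molecule is a trimer of an alpha, a beta and a gamma chain, every chain encoded by its own gene. The genes described here are 9 laminin chain genes, chosen by symbol: LAMA1, LAMA2, LAMA3, LAMA4 and LAMA5 for alpha chains, LAMB1, LAMB2 and LAMB3 for beta chains, and LAMC1 for the gamma 1 chain. They are 9 of the 60606 genes in the table, and all 9 had a row. Of these, 8 had a mean above 1 TPM over the 9 libraries and were tested; LAMA2 did not reach that level.

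The 3 chains are joined in the endoplasmic reticulum along a long coiled coil, and the trimer is then secreted. The alpha chain carries the C-terminal globular domains through which laminins bind integrins and dystroglycan, so the alpha chain in a trimer largely sets which receptors it engages. Trimers are named by their chains: laminin-111 holds alpha 1, beta 1 and gamma 1, laminin-411 and laminin-511 differ from it in the alpha chain, and laminin-332 holds alpha 3 and beta 3. Laminin-111 is best known from embryonic basement membranes, whereas laminins with alpha 4 and alpha 5 are typical of blood vessel walls, and glioma cells meet them when they move along vessels.

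RNA was sequenced from U87, an established human glioblastoma cell line, and from a pair of lines made from it, with 3 libraries per line. Parental U87 was not irradiated and grew in medium with 10% fetal bovine serum. GSCs are U87-derived stem cells that received 13 rounds of 5 Gy and grew without serum, in DMEM/F12 with B27, EGF and bFGF (20 ng/ml each). Diff cells came from these GSCs through culture in 10% serum and the picking of colonies, and no line of GSCs without irradiation was part of the data. In a comparison with U87, irradiation and stem cell culture therefore cannot be told apart. For GSCs the medium, and for Diff cells the picking of colonies, cannot be told apart from these either. Between Diff cells and GSCs, the medium, differentiation and the picking of colonies cannot be told apart. The records do not say whether the libraries of a line came from separate cultures, so p-values measure the spread between these libraries only. In such bulk RNA, fewer cells of a kind and less RNA per cell cannot be told apart.

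The values are TPM, transcripts of a gene per 1000000, and TPM divides by gene length, so levels of different chains can be compared within a library. TPM keeps no record of depth. Mitochondrial genes took 25.89% to 31.84% and the noncoding RNA RN7SL1 5.73% to 9.79% of a library. Of 10 glioma and neural stem markers, 6 exceeded a mean of 1 TPM in each line. VIM and CD44 were the highest of them, while SOX2, S100B and PROM1 stayed at a mean below 1 TPM in every line. By mean, SOX2, PROM1, FABP7, OLIG2 and CD44 were highest in GSCs. GFAP, NES and VIM were highest in U87, and S100B and TUBB3 in Diff cells. FABP7 averaged 0.731 TPM in U87, 4.91 in GSCs and 2.86 in Diff cells. Summed TPM was 11.24 to 39.98 over 7 endothelial markers, 7.283 to 19.61 over 6 markers of macrophages and microglia, 2.256 to 13.71 over 6 epithelial markers, and 38.23 to 63.98 over 6 Schwann cell and oligodendrocyte markers. The highest epithelial sum was that of Diff replicate 1, which had 5.54 TPM of KRT5 and 6.03 TPM of KRT14, whereas every other library was below 0.1 TPM for both keratins. Markers of pericytes and smooth muscle summed to 170.1 to 175.2 TPM in U87, 70.2 to 88.16 in GSCs and 69.29 to 71.34 in Diff cells. The endothelial sum was highest in GSCs, at 34.34 to 39.98 TPM, against 11.24 to 13.94 in U87 and 13.87 to 17.92 in Diff cells. Within it, KDR, VWF and PECAM1 averaged 17.3, 11.4 and 6.25 TPM in GSCs, against 5.97, 0.527 and 2.77 in U87. TEK went the other way, with 2.41 TPM in U87, 1.12 in GSCs and 0.437 in Diff cells. CDH5, CLDN5 and EMCN stayed at a mean below 1 TPM in every line, and CLDN5 and EMCN were lowest in GSCs. The part of these other cell type markers in the laminin values was not tested.

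The sequences in front of LAMA5, LAMB1 and LAMC1 are shown because these are members with a change past 2-fold whose start region, outside any annotated exon, runs over 100 bases. They are RefSeq sequences of build GRCh38.p14, read 5′ to 3′ along the gene's own strand, and capitals mark GC boxes, the core motif bound by SP1 family factors, spelled GGGCGG on either strand.
LAMA5, chr20:62367313-62367562, minus strand: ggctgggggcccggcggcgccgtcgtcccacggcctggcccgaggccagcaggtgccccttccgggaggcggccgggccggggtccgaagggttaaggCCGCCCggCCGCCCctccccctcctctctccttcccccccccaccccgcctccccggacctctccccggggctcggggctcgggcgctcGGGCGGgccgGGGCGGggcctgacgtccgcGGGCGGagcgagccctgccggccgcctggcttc
LAMB1, chr7:108003256-108003411, minus strand: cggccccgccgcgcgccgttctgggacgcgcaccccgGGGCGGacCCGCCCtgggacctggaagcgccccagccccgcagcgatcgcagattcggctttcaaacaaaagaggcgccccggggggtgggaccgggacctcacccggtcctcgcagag
LAMC1, chr1:183023170-183023419, plus strand: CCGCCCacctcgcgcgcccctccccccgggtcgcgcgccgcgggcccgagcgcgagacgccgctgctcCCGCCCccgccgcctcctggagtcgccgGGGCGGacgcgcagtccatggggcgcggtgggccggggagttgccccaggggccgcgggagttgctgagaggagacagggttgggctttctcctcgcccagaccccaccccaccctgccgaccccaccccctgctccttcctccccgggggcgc

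Within the 250 bases before the RefSeq start, LAMA5 had 5 GC boxes, LAMB1 4 (2 of them in the stretch shown) and LAMC1 3. Of 34788 such windows over all genes, 42.6% held at least 1 GC box. The GC content was 82.8% for LAMA5, 79.6% for LAMC1 and 70.4% for LAMB1, against a median of 58% over all windows. The AP-1 site, with the letters TGANTCA read on either strand, was found in 6.6% of all windows. The TATA box was searched as TATAAA and found in 10.8%. An E-box of the letters CACGTG was found in 6.3%. None of these 3 motifs was found in the windows of LAMA5, LAMB1 and LAMC1. The window of LAMA3, in front of its short form, held 2 AP-1 sites and 1 GC box. LAMA2 and LAMA4 had no match to any of the 4 motifs in this window. The window of LAMB2 held 1 GC box. LAMB3 had several windows, each with 1 GC box, and that from 209651375 to 209651624 also held 1 AP-1 site. A match to letters is a description only, and the GC-rich windows belong to a gene that was higher in GSCs (LAMB1), 1 that was lower in GSCs (LAMC1) and 1 that was low in Diff cells (LAMA5). Windows were found for 8 of the 9 genes, and that of LAMA1 was not among them.

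Laminin genes were compared between lines with limma on log2(TPM + 1). A gene is said to have risen or fallen where the Benjamini-Hochberg adjusted p was under 0.05, and it is called where the change also exceeded 1 on the log2 scale. Against U87, LAMA1 was called higher in both irradiated lines, LAMA4 and LAMB1 were called higher in GSCs, LAMC1 and LAMA3 were called lower in GSCs, and LAMA5 was called lower in Diff cells. In Diff cells against U87, 2 of 8 tested members were called, where 12.3% of all 22909 tested genes were. Of these 2, 1 was higher (background 5.92%) and 1 lower (6.36%). In GSCs against U87, 5 of 8 were called against a background of 17.1%, 3 of them higher (9.52%) and 2 lower (7.53%). In Diff cells against GSCs, 2 of 8 were called against 8.01%, none higher (2.66%) and 2 lower (5.36%). By the adjusted p alone, 3 rose (background 18.9%) and 3 fell (20.5%) in Diff cells against U87, where 39.4% of all genes passed. In GSCs against U87, 4 rose (25.3%) and 2 fell (23.3%), with 48.6% over all genes. In Diff cells against GSCs, 2 rose (15%) and 4 fell (19.8%), with 34.8% over all genes. The libraries of the 2 lines compared did not overlap for 7 of 8 tested members in Diff cells against U87, with 3 higher (26.2%) and 4 lower (29%), where 55.2% of all tested genes were so separated. In GSCs against U87 this held for 6 of 8, with 4 higher (29.3%) and 2 lower (26.6%), against 55.8%. In Diff cells against GSCs all 8 were separated, 2 higher (19.8%) and 6 lower (27%), against 46.7%. The median log2 fold change of the tested members was -0.05, 0.29 and -0.41 in these comparisons, beside -0.04, 0.02 and -0.06 for all tested genes. The first 2 comparisons share the U87 libraries, and the last shares libraries with both.

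**Figure D1:**
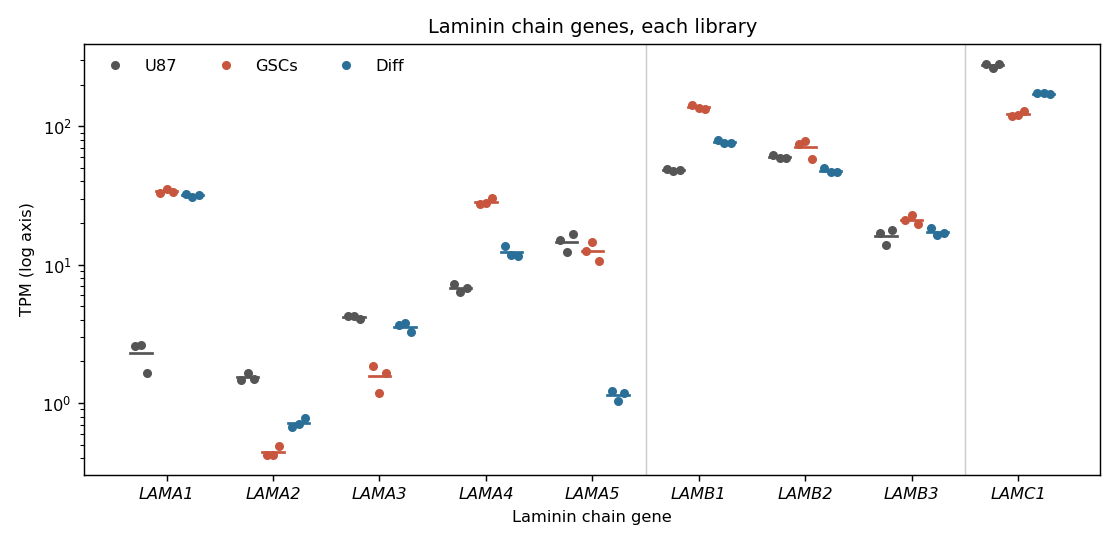
TPM (log axis) of the 9 laminin chain genes in U87, GSCs and Diff cells; points are libraries, short lines the mean of 3 libraries, and vertical lines part alpha, beta and gamma chain genes. LAMA1 lies at 1.66 to 2.64 TPM in U87 and at 31 to 35.5 TPM in all 6 libraries of the irradiated lines, whereas LAMA5 drops to 1.03 to 1.23 TPM in Diff cells alone.

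LAMA1 encodes the alpha 1 chain of laminin-111 and lies on chromosome 18 from 6941744 to 7117814 on the minus strand (GRCh38, GENCODE 29). It had 2.58, 2.64 and 1.66 TPM in the U87 libraries, 33.2, 35.5 and 33.6 TPM in GSCs and 32.3, 31 and 31.9 TPM in Diff cells. Every library of the irradiated lines stood far above all U87 libraries. The ratio of mean TPM to U87 was 14.9 in GSCs and 13.9 in Diff cells. On the log2(TPM + 1) scale the rise was 3.43 in GSCs (standard error 0.118, limma adjusted p = 1.01e-07) and 3.33 in Diff cells (standard error 0.118, limma adjusted p = 1.92e-07), and 99.3% and 99.7% of all tested genes had a smaller value in these comparisons. Between the irradiated lines the difference was -0.10, with a 95% interval of -0.37 to 0.17 (limma adjusted p = 0.559), although the 3 Diff values lay just below the 3 GSC values. Exons of antisense genes cover 11.05% of the exonic bases of LAMA1. Most of this, 10.34%, comes from ENSG00000265069, which averaged 0 TPM in U87, 0.0863 in GSCs and 0.107 in Diff cells. A further antisense gene, ENSG00000264475, averaged 0.0829 TPM in U87, 4.24 in GSCs and 2.18 in Diff cells. It overlaps 0.71% of the exonic bases, and since the strand setting of the counting is not given in the sources used here, reads of the overlap cannot be assigned.

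LAMA5 encodes the alpha 5 chain, the alpha chain of laminin-511, and lies on chromosome 20 from 62307955 to 62367312 on the minus strand. Its TPM was 15, 12.4 and 16.7 in U87 and 12.5, 14.6 and 10.6 in GSCs. In Diff cells it was 1.23, 1.03 and 1.19. U87 and GSCs overlapped, and all Diff libraries lay below both. The U87 mean was 12.8 times and the GSC mean 11 times the Diff mean. LAMA5 fell by 2.86 on the log2(TPM + 1) scale in Diff cells against U87 (standard error 0.142, limma adjusted p = 1.19e-06) and by 2.65 against GSCs (standard error 0.142, limma adjusted p = 4.3e-06). Only 0.27% of tested genes had a lower value in Diff cells against GSCs. In GSCs against U87 the difference was -0.21 with an interval of -0.53 to 0.12 (limma adjusted p = 0.263). Exons on the opposite strand overlap 2.53% of its exonic bases, 1.71% from ADRM1, a proteasome subunit gene with a mean of 76.4 TPM in U87, 55.9 in GSCs and 81.1 in Diff cells.

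LAMA4 encodes the alpha 4 chain, which lacks the N-terminal domain used for polymerization of laminins, and lies on chromosome 6 from 112108760 to 112254939 on the minus strand. It stood at 7.23, 6.4 and 6.74 TPM in U87, 27.4, 27.8 and 30.4 TPM in GSCs and 13.6, 11.7 and 11.6 TPM in Diff cells. The 3 lines did not overlap, with GSCs highest and Diff cells between. The change was 1.92 in GSCs against U87 (standard error 0.0865, limma adjusted p = 4.53e-07), 0.77 in Diff cells against U87 (limma adjusted p = 0.000138, not called for its size) and -1.15 in Diff cells against GSCs (limma adjusted p = 2.48e-05). Thus LAMA4 fell from GSCs to Diff cells by a ratio of 2.31 in mean TPM and stayed 1.81 times the U87 mean. An antisense gene over 1.78% of its exonic bases, ENSG00000237234, averaged 1.45 TPM in U87, 6.34 in GSCs and 2.41 in Diff cells.

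LAMA3 encodes the alpha 3 chain of laminin-332, known from epithelial basement membranes, and lies on chromosome 18 from 23689443 to 23956222 on the plus strand. Values were 4.25, 4.26 and 4.04 TPM in U87, 1.86, 1.19 and 1.65 TPM in GSCs and 3.65, 3.79 and 3.27 TPM in Diff cells. It was lowest in GSCs, without overlap with either other line. The change in GSCs against U87 was -1.02 (standard error 0.134, limma adjusted p = 0.000267), just past the limit for a call, and without GSCs replicate 2 it was -0.91, below that limit. LAMA3 rose by 0.84 in Diff cells against GSCs (limma adjusted p = 0.00158). With a pseudocount of 0.1 this rise was 1.16 (limma adjusted p = 0.00193) and past the limit for a call, so that 3 members were called in that comparison. Diff cells against U87 gave -0.18 with an interval of -0.49 to 0.12 (limma adjusted p = 0.321).

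LAMA2 encodes the alpha 2 chain of muscle and nerve basement membranes and lies on chromosome 6 from 128883141 to 129516569 on the plus strand. It was the lowest member in each line, at 1.46, 1.64 and 1.5 TPM in U87, 0.423, 0.421 and 0.491 TPM in GSCs and 0.673, 0.703 and 0.783 TPM in Diff cells. The 3 lines did not overlap, and U87 had 3.45 times the mean of GSCs and 2.14 times that of Diff cells. In a fit without the filter on low values, over 42424 genes, LAMA2 changed by -0.81 in GSCs against U87 (limma adjusted p = 0.000659), by -0.56 in Diff cells against U87 (adjusted p = 0.00616) and by 0.25 in Diff cells against GSCs (adjusted p = 0.16). The logarithm of TPM + 1 compresses changes at this level.

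The alpha chain messages thus differed in make-up between the lines. Each alpha chain was expressed as a percentage of the summed TPM of the 5 alpha chains in a library. LAMA5 held the largest part in U87, 49.6% ± 4.57 (SD, n = 3), followed by LAMA4 with 23% ± 0.894 and LAMA3 with 14.2% ± 1.22. LAMA1 held 7.84% ± 2.18 there. In GSCs, LAMA1 had 44.1% ± 0.449, LAMA4 37% ± 2.39 and LAMA5 16.3% ± 2.3 (SD, n = 3). Diff cells had 64.2% ± 1.31 LAMA1, 24.9% ± 1.39 LAMA4, 7.22% ± 0.586 LAMA3 and 2.32% ± 0.156 LAMA5 (SD, n = 3). LAMA1 thus ranged from 5.43% to 9.65% in U87, 43.8% to 44.6% in GSCs and 62.8% to 65.4% in Diff cells. For every alpha chain and every pair of lines the shares did not overlap (exact permutation over libraries, two-sided, p = 0.1 each and adjusted p = 0.1 over 15 comparisons). With 3 against 3 no p can be lower, so none could pass 0.05. Shares are tied to each other, because a rise of 1 chain lowers the others. Counted among the 4 alpha chains other than LAMA1, LAMA4 was 3.16 percentage points higher in Diff cells than in GSCs, whereas with LAMA1 counted it was -12.1 points, and LAMA3 in Diff cells against U87 went from -7.02 to 4.66 points.

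**Figure D2:**
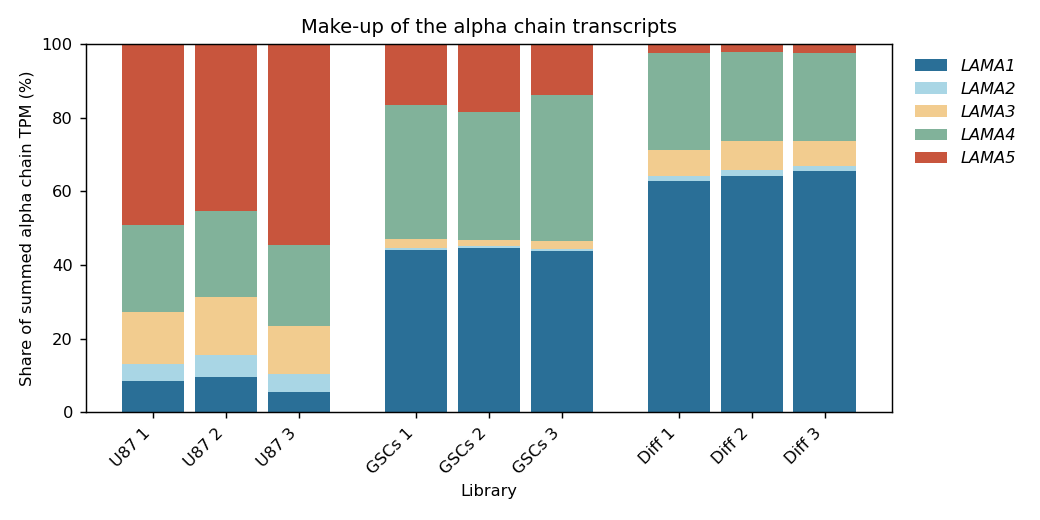
Share of each alpha chain gene in the summed alpha chain TPM (%), 1 bar per library of U87, GSCs and Diff cells. LAMA5 makes up 45.3% to 54.4% in U87 and 2.14% to 2.43% in Diff cells, and LAMA1 62.8% to 65.4% in Diff cells.

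Among the beta chains, LAMB1 changed most. It encodes beta 1, the beta chain of laminin-111, laminin-411 and laminin-511, and lies on chromosome 7 from 107923799 to 108003255 on the minus strand. TPM was 48.8, 47.7 and 48.4 in U87, 143, 136 and 134 in GSCs and 79.3, 75.9 and 76.1 in Diff cells. The ranges were narrow and far apart, in the order GSCs, Diff cells, U87, the same order as for LAMA4. LAMB1 rose by 1.49 in GSCs against U87 (standard error 0.0449, limma adjusted p = 5.62e-08) and by 0.66 in Diff cells against U87 (limma adjusted p = 6.84e-06), and it fell by 0.83 in Diff cells against GSCs (limma adjusted p = 4.63e-06). Only the first of these changes was called. Opposite-strand exons cover 3.57% of its exonic bases. The antisense gene ENSG00000273055 covers 2.71% and averaged 4.2 TPM in U87, 6.64 in GSCs and 7.24 in Diff cells. DLD covers 0.86%, and its mean was 39.3 TPM in U87, 47.6 in GSCs and 57.2 in Diff cells.

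LAMB2 encodes beta 2, known from the neuromuscular junction and the kidney filter, and lies on chromosome 3 from 49121114 to 49133118 on the minus strand. It had 61.6, 59.2 and 58.9 TPM in U87, 74.7, 78.6 and 58.1 TPM in GSCs and 49.5, 46.5 and 46.8 TPM in Diff cells. GSCs replicate 3 lay at the level of U87, below the other GSC libraries. In Diff cells LAMB2 was lower than in GSCs by a log2 difference of -0.54 (limma adjusted p = 0.00358). Against U87 the difference in Diff cells was -0.33 (limma adjusted p = 0.0324), and the adjusted p ranged from 0.0011 to 0.0935 over the alternatives; it was above 0.05 when any 1 library of these lines was left out. In GSCs against U87 it was 0.22 with an interval of -0.01 to 0.45 (limma adjusted p = 0.11; 0.35 and adjusted p = 0.00061 without GSCs replicate 3). Its pseudogene LAMB2P1, with which reads could be shared, averaged 2.37 TPM in U87, 5.67 in GSCs and 0.582 in Diff cells, far below LAMB2 itself.

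LAMB3 encodes the beta 3 chain of laminin-332 and lies on chromosome 1 from 209614870 to 209652466 on the minus strand. Its values were 17, 13.9 and 17.8 TPM in U87, 21.1, 22.7 and 19.5 TPM in GSCs and 18.3, 16.5 and 17 TPM in Diff cells. GSCs were highest, and U87 and Diff cells overlapped. The rise in GSCs against U87 was 0.36 (limma adjusted p = 0.0169; 0.0545 without GSCs replicate 2). The other differences were 0.09 in Diff cells against U87 (interval -0.14 to 0.32, limma adjusted p = 0.539) and -0.28 in Diff cells against GSCs (interval -0.51 to -0.04, limma adjusted p = 0.0677; 0.0495 without GSCs replicate 3).

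As part of the 3 beta chains, LAMB1 made up 38.8% ± 0.598 in U87, 60.2% ± 3.01 in GSCs and 54.3% ± 0.389 in Diff cells (SD, n = 3). LAMB2 went the other way, with 48.2% ± 1 in U87, 30.6% ± 2.89 in GSCs and 33.5% ± 0.115 in Diff cells. LAMB2 was thus the leading beta chain in U87 and LAMB1 in both irradiated lines. Of the 9 comparisons of beta chain shares, 8 were separated (exact permutation over libraries, p = 0.1, adjusted p = 0.113), and the LAMB3 share in Diff cells against U87 was not (exact p = 0.4).

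LAMC1 encodes gamma 1, the gamma chain of most laminins, and lies on chromosome 1 from 183023460 to 183145592 on the plus strand. It moved against LAMB1, with 284, 262 and 281 TPM in U87, 119, 120 and 130 TPM in GSCs and 174, 172 and 170 TPM in Diff cells. U87 was highest and GSCs lowest, without overlap. LAMC1 fell by 1.16 in GSCs against U87 (standard error 0.0521, limma adjusted p = 4.53e-07) and by 0.67 in Diff cells against U87 (limma adjusted p = 1.48e-05). It rose by 0.48 from GSCs to Diff cells (limma adjusted p = 0.000189). Only the first change was called. LAMC1-AS1, by its symbol an antisense RNA gene and named here after its values were seen, averaged 26.4 TPM in U87, 13.6 in GSCs and 17.3 in Diff cells. That is the same order as LAMC1. The position of LAMC1-AS1 was not examined, and no exon on the opposite strand overlaps the exons of LAMC1 in GENCODE 29.

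**Figure D3:**
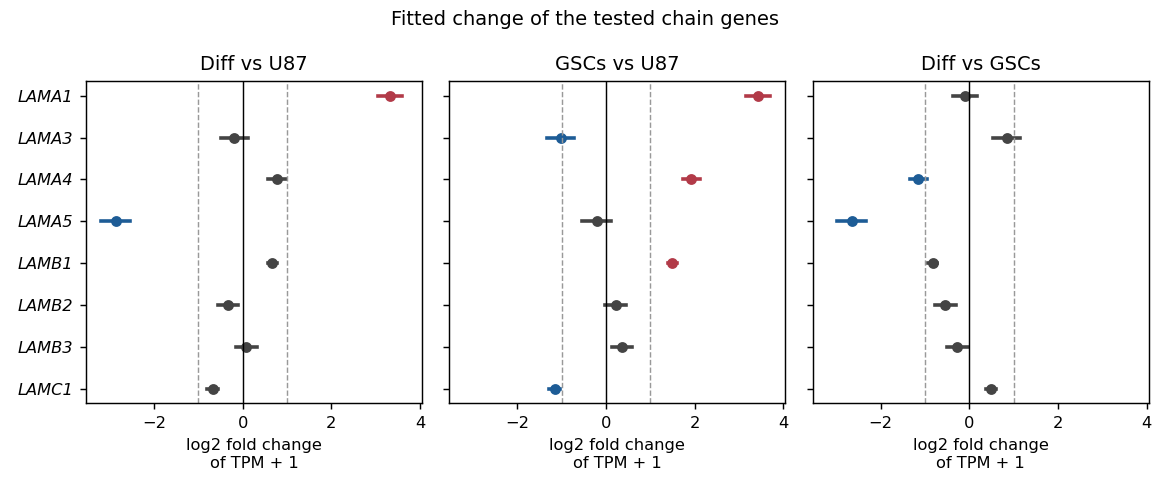
Log2 fold change of TPM + 1 from limma for the 8 tested laminin genes in 3 comparisons; points are estimates, bars 95% intervals, dashed lines mark a change of 1, and red and blue mark genes called higher and lower. LAMA1 stands at 3.33 and 3.43 against U87, LAMA5 at -2.86 and -2.65 in the comparisons of Diff cells, and LAMB1 and LAMC1 lie on opposite sides of 0 in each panel.

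Summed over each class, the alpha chains were the least abundant in every library. Their sum was 29.5 ± 1.86 TPM in U87, 77.2 ± 2.11 in GSCs and 49.5 ± 1.75 in Diff cells (SD, n = 3). The beta chains summed to 124 ± 3.35, 229 ± 15.2 and 142 ± 4.47 TPM. LAMC1 alone had 275 ± 11.7, 123 ± 6.1 and 172 ± 1.85 TPM. The ratio of LAMC1 to the alpha sum was therefore 9.35 ± 0.212 in U87, 1.59 ± 0.0916 in GSCs and 3.48 ± 0.0993 in Diff cells (SD, n = 3). LAMC1 exceeded the beta sum by a ratio of 2.21 ± 0.0384 in U87 and 1.21 ± 0.0296 in Diff cells, while in GSCs the ratio was 0.539 ± 0.0648. All these ratios were separated between each pair of lines (exact permutation over libraries, p = 0.1, adjusted p = 0.106 over 18 comparisons of sums and ratios). The sum of the 9 genes was 429 ± 16.8 TPM in U87 and 429 ± 9.83 TPM in GSCs (exact permutation test, p = 1) and 364 ± 7.68 TPM in Diff cells. The summed level thus differed by less than the spread between libraries in U87 and GSCs, while its make-up differed. These are levels of RNA, and secreted trimers were not measured.

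**Figure D4:**
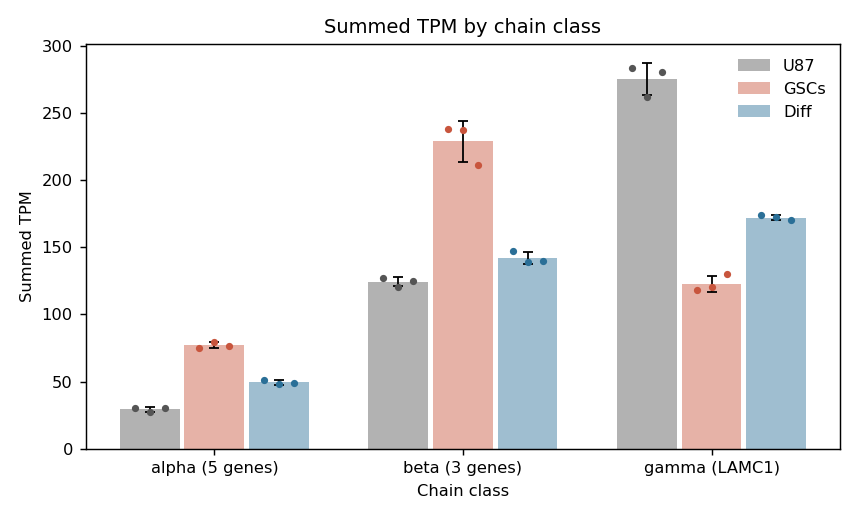
Summed TPM of the 5 alpha chain genes, the 3 beta chain genes and LAMC1 in U87, GSCs and Diff cells; bars are means, error bars SD over 3 libraries and points libraries. Alpha and beta sums are highest in GSCs, at 77.2 and 229 TPM, where LAMC1 is lowest, at 123 TPM.

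The order of the levels changed with the line. In U87 it was LAMC1, LAMB2, LAMB1, LAMB3, LAMA5, LAMA4, LAMA3, LAMA1 and LAMA2, and LAMB3 and LAMA5 were the only neighbours in this order whose libraries overlapped. GSCs had LAMB1 ahead of LAMC1, then LAMB2, LAMA1, LAMA4, LAMB3, LAMA5, LAMA3 and LAMA2. In Diff cells the order was LAMC1, LAMB1, LAMB2, LAMA1, LAMB3, LAMA4, LAMA3, LAMA5 and LAMA2. No neighbours overlapped in the irradiated lines. LAMA1 moved from the eighth place to the fourth in both.

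Each member was then set beside the 12 tested protein-coding genes on either side of it in RefSeq order. Around LAMA1 the median log2 fold change of the 24 neighbours was -0.01 in Diff cells and 0.11 in GSCs against U87, and all 24 lay below LAMA1 in both comparisons. Around LAMA5 the median was -0.17 in Diff cells against GSCs, and all 24 neighbours were above LAMA5. Against U87, 1 neighbour, SLCO4A1, lay below LAMA5 in Diff cells, at -2.89. LAMA4 exceeded all 24 neighbours in GSCs against U87, whose median was -0.02. The neighbours of LAMB1 on chromosome 7 were themselves mostly higher in GSCs, with a median of 0.44, 20 of 24 above 0, and LAMB1 stood above 22 of them. Of the 24, 6 were called higher and 2 lower, where 9.52% and 7.53% of all tested genes were. Their median in Diff cells against U87 was 0.34 with 18 of 24 above 0, beside 0.66 for LAMB1. The neighbours of LAMC1 had a median of -0.32 in GSCs against U87, with 8 of 24 above 0, and 1 of them was lower than LAMC1. With 25 genes on either side, the median was 0.01 and 26 of 50 were above 0, so the lower median depended on the width of the window. LAMA3 went against its surroundings, whose median was 0.36 in GSCs against U87 beside -1.02 for LAMA3. The part of such regional differences in the laminin values was not tested.

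For the 3 members with the widest range between lines, the protein-coding genes nearest in pattern were sought among 12181, by the Euclidean distance of centred log2 values over the 9 libraries. The nearest to LAMA1 were GPR137B (distance 0.439), SLC4A10 (0.497) and IRX6 (0.525), which had log2 fold changes of 3.18, 3.52 and 3.21 in GSCs and 3.12, 3.29 and 3.07 in Diff cells against U87. The nearest to LAMA5 were ADAMTS18 (0.646), SLCO4A1 (0.669) and HILPDA (0.886). Their changes in Diff cells against GSCs were -3.00, -2.30 and -2.56. SLCO4A1, an organic anion transporter gene, is also among the neighbours of LAMA5 on chromosome 20. FSTL4 (0.222), SVEP1 (0.249) and PRNP (0.277) were nearest to LAMA4, with 1.94, 1.89 and 1.84 in GSCs against U87. These distances rest on 3 lines with 3 libraries each and are a description.

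Further laminin chain genes outside the 9 were low. LAMB4 averaged 0.0477 TPM in U87, 0.357 in GSCs and 0.362 in Diff cells, and LAMC3 stayed below 0.1 TPM in every library; neither was tested.

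The gene lists that follow are to be read beside the shares of all tested genes that rose and fell, which were 18.9% and 20.5% in Diff cells against U87, 25.3% and 23.3% in GSCs against U87 and 15% and 19.8% in Diff cells against GSCs. All 13 laminin receptor genes were tested. Of these, 2 rose and 7 fell in Diff cells against U87, and in GSCs against U87 5 rose and 7 fell. The median log2 fold change was -0.32 and -0.56. The receptor gene with the highest mean in each line was ITGA3, at 1304 TPM in U87, 1749 in GSCs and 1434 in Diff cells. ITGA3 rose by 0.42 in GSCs against U87 (limma adjusted p = 0.00273). Its change in Diff cells against U87 was 0.14 (limma adjusted p = 0.222). ITGA6 and ITGB1 form integrin alpha 6 beta 1, a receptor for laminins. ITGA6 had a mean of 6.48 TPM in U87, 1.62 in GSCs and 0.937 in Diff cells, a change of -1.51 in GSCs (limma adjusted p = 3.24e-05) and -1.96 in Diff cells (limma adjusted p = 9.95e-06). ITGB1 changed by -1.31 and -1.70, and SDC2, a syndecan that binds laminin through heparan sulfate, by -1.29 and -1.54. The receptors called higher in GSCs against U87 were ITGB4 (1.46, limma adjusted p = 0.000195), the partner of ITGA6 in hemidesmosomes, and BCAM (1.71, limma adjusted p = 0.000442), a receptor for the alpha 5 chain. BCAM fell by 1.24 in Diff cells against GSCs (limma adjusted p = 0.00467), and its means were 1.07 TPM in U87, 5.84 in GSCs and 1.86 in Diff cells. Its change in Diff cells against U87 was 0.47 (limma adjusted p = 0.161). ITGB4 was also low, with means of 0.748 TPM in U87, 3.83 in GSCs and 1.83 in Diff cells. From GSCs to Diff cells 2 receptors rose and 8 fell, with a median of -0.36. Of 6 hemidesmosome and tetraspanin partners, which include ITGA6 and ITGB4, 1 rose and 4 fell in Diff cells and 1 rose and 3 fell in GSCs against U87. DST, a plakin that links hemidesmosomes to the cytoskeleton, changed by -1.09 in GSCs.

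Of 16 genes for other basement membrane components, 10 were tested. Against U87, 1 rose and 8 fell in Diff cells, with a median of -0.99, and 2 rose and 7 fell in GSCs, with a median of -0.71. In Diff cells against GSCs none rose and 5 fell by limma. COL15A1, a vessel-associated collagen, had a mean of 20.6 TPM in U87, 4.81 in GSCs and 4.26 in Diff cells. SMOC1 changed by -1.70 in GSCs and -2.61 in Diff cells, and HSPG2, which encodes perlecan, by -1.60 in Diff cells (limma adjusted p = 7.35e-05). SPARC, a collagen-binding protein, changed by -1.16 and -1.04. AGRN, which encodes agrin, a proteoglycan that binds laminin, went the other way and rose by 1.10 in Diff cells against U87 (limma adjusted p = 5.34e-05). COL4A6 fell by 1.70 in Diff cells against GSCs (limma adjusted p = 1.15e-05).

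Dystroglycan binds the globular domains of alpha chains through a sugar polymer. Of 13 genes of this glycosylation, 12 were tested; 2 rose and 3 fell in Diff cells against U87, none rose and 4 fell in GSCs against U87, and 4 rose and 1 fell in Diff cells against GSCs, with medians of -0.01, -0.14 and 0.11. Both counts in Diff cells against U87 lay near the shares over all genes. Among 9 proteases that can cleave laminin chains, 6 were tested, with 3 that rose and 1 that fell in Diff cells against U87, 3 and 3 in GSCs against U87, and 2 and 2 in Diff cells against GSCs. BMP1, which trims the chains of laminin-332, had a mean of 31.4 TPM in U87, 7.49 in GSCs and 32.8 in Diff cells. Its change was -1.95 in GSCs against U87 (limma adjusted p = 3.17e-06) and 2.01 in Diff cells against GSCs (limma adjusted p = 8.81e-06). The largest change was that of MMP3, a stromelysin, with a mean of 8.78 TPM in U87, 547 in GSCs and 366 in Diff cells, a rise of 5.81 in GSCs and 5.24 in Diff cells against U87. PLAT, tissue plasminogen activator, fell by 1.59 and 1.58, with means of 14 TPM in U87, 3.99 in GSCs and 4.01 in Diff cells. PLAU, a further plasminogen activator gene, went the other way, with means of 66.7, 117 and 133 TPM. It rose by 0.83 in GSCs (limma adjusted p = 0.00144) and 1.00 in Diff cells (limma adjusted p = 0.000618) against U87. MMP14, a membrane-bound metalloproteinase, rose by 1.58 in GSCs and 1.08 in Diff cells against U87. Of 7 netrins and other genes with laminin-type domains, 4 were tested. Of these, 2 rose and 1 fell in GSCs against U87 and none passed the adjusted p in the other comparisons. NTN4 was left out by the filter, with means of 2.39 TPM in U87, 0.122 in GSCs and 0.0564 in Diff cells. In the fit without the filter, 1 gene of this list was called in Diff cells against U87.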

How the data were processed

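Each of 9 libraries had 1 column of log2(TPM + 1), computed by the authors and covering 60606 genes; values were transformed back to TPM, which summed to 1000000 per library. Per the labels, the submitters' processing notes name FastQC 0.11.9, Trimmomatic 0.39, HISAT2 2.2.1, featureCounts 2.0.5, R 4.2.0 and the build GRCh38. Annotation and strand setting are not given in the sources used here. The sample records describe depletion of rRNA, and the study's methods describe oligo(dT) beads.

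Genes with a mean TPM over 1 (22909) were fitted with limma 3.58.1 in R 4.3.3 (eBayes with trend, cell line as the only term, all 9 libraries). Benjamini-Hochberg adjustment was applied per comparison, and intervals are 95%. Shares and sums were compared with exact permutation tests. The fit was tested on simulated data. Positions and overlaps are from GENCODE 29, neighbours and start windows from RefSeq (GRCh38.p14). Other genes named were up to 5 called genes of a list by size of change, of which not all are printed. The 3 genes nearest in pattern to each of 3 members were also named. Genes that overlap or neighbour a member, single cell type markers, ITGA3 and NTN4 were named after their values were seen. Members and lists were chosen with earlier results of these data known. Alternatives covered pseudocount, filter, lines in the fit, scaling, trend, replicate block, threshold and the omission of each library. Some genes of the lists are not reported here. Figures used matplotlib 3.10.9 in Python 3.11.15.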

Additional observations from a re-analysis of the deposited data

How the results depend on the processing

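Outside the omission of single libraries, 209 refitted log2 fold changes of the tested members kept their direction and side of the adjusted p threshold and 4 lost it; with 1 library left out, 134 kept both, 7 lost it, 2 gained it and 1 changed sign. LAMB2 in Diff cells against U87 accounted for 10 losses: its adjusted p was 0.0539 without a filter, 0.062 with quantile normalization, 0.075 with median-ratio scaling and 0.0555 without a trend, and 0.0554 to 0.0935 with a library left out. LAMB3 in GSCs against U87 was lost without GSCs replicate 2 (0.31, adjusted p = 0.0545). LAMB3 in Diff cells against U87 ranged from -0.015 (without U87 replicate 2) to 0.16. Among the 4 alpha chains other than LAMA1, the share difference was 4.66 points for LAMA3 in Diff cells against U87 and 3.16 for LAMA4 in Diff cells against GSCs, both opposite in sign to that over 5 chains. In the order Diff cells against U87, GSCs against U87 and Diff cells against GSCs, a filter at a mean of 5 TPM left 1583, 2254 and 1038 called genes, and the adjusted p alone gave 9024, 11129 and 7982; by the adjusted p alone 6 members passed in each comparison. A pseudocount of 0.1 called 3 members in Diff cells against GSCs, LAMA3 being added. With a library left out, 2, 4 to 5 and 2 members were called; the lower value of 4 came without GSCs replicate 2. Same-numbered libraries did not deviate together (correlations -0.0416 to 0.0489), and the fit with the replicate block called 2, 5 and 2 members and 2810, 3917 and 1831 genes and changed no call of a member. Other scalings moved the median of all genes by at most 0.096 on the log2 scale. TPM keeps no depth, so counting error could not be given.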
